A study of Mus musculus with 8 samples.

Results

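The expression of the autophagy machinery was examined in microglia sorted from the brains of mice that lack *Smad2* and *Smad3* in microglia. Members were the protein-coding genes whose symbol starts with Atg and a digit, Map1lc3, *Gabarap* or Wipi, together with *Ulk1*, *Ulk2*, *Becn1*, *Rb1cc1*, *Sqstm1*, *Nbr1*, *Optn*, *Pik3c3*, *Pik3r4*, *Uvrag*, *Rubcn*, *Ambra1*, *Tecpr1* and *Epg5*, that reached 10 counts in 4 or more of the 8 libraries. Of the 55573 genes in the count table, 40 matched these symbols and 39 passed the filter, among 20153 genes that passed it in all. *Atg9b* was the member that did not pass, and its highest level in any library was 0.607 counts per 1000000 counts of the library (CPM).

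Libraries came from 4 *Smad2/3 fl/fl;Cx3cr1 Cre* mice (SmadKO) and 4 littermates (WT) at postnatal day 60, with 1 library per mouse. The sample labels call the littermates wild type, whereas the Methods of the study describe controls that generally carried the *Cx3cr1 Cre* allele and a floxed allele. Cre expressed from *Cx3cr1* acts in microglia and in other macrophages that express this chemokine receptor, so a sort by myeloid surface proteins may hold more than parenchymal microglia. Canonical TGFβ signalling acts through the transcription factors SMAD2 and SMAD3, and the comparison asks how their loss changes the transcriptome of adult microglia.

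Macroautophagy encloses cytoplasmic cargo in a double membrane that closes into an autophagosome and fuses with a lysosome. The ULK kinase complex starts the process, a class III phosphatidylinositol 3-kinase complex marks the membrane with PI3P, and lipid transfer proteins and PI3P effectors let it grow. A chain of ubiquitin-like conjugation reactions then attaches the Atg8 proteins (the LC3 and GABARAP families) to the membrane, where cargo receptors bind them, and in phagocytes the same conjugation machinery also acts on phagosomes.

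The libraries held between 35639502 and 41946479 counts. In SmadKO libraries *Smad3* was between 9.61 and 35.1 CPM, against 39.5 to 56.9 CPM in WT (log2 fold change −1.33, adjusted p = 0.0429), and *Smad2* did not pass the test (−0.34, adjusted p = 0.34). The counts are over whole genes, so a transcript that has lost only a floxed exon is still counted. All 8 microglial marker genes were detected in every library, and their summed level was 29572 to 44734 CPM in WT and 5709 to 7974 CPM in SmadKO, with 7 of the 8 called lower. The summed level of 6 border macrophage markers was 47.5 to 93.2 CPM in WT and 1598 to 2485 CPM in SmadKO, with 4 called higher. Summed oligodendrocyte markers (707 to 4503 and 1164 to 3795 CPM) and neuronal markers (38 to 411 and 114 to 363 CPM) overlapped between the groups and were highest in replicate 1 of each. Summed astrocyte markers were 1312 to 1845 CPM in WT and 177 to 600 CPM in SmadKO, where 1 of the 6, *Slc1a3*, was called lower and the other 5 were not called. Of the 4 lymphocyte markers *Cd3e* was called higher (log2 fold change 1.87, adjusted p = 0.0195), and none of the endothelial or the monocyte and neutrophil markers was called. *Xist* was between 99.5 and 183 CPM in every WT library and at most 0.562 CPM in SmadKO, so sex and genotype cannot be told apart in these libraries. Apart from alternative fits with a neural marker score, the part of these differences in the results on autophagy genes was not tested.

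In SmadKO microglia 2 of the 39 autophagy genes fell and none rose at an adjusted p under 0.05 in edgeR. These were *Atg14*, which directs the PI3-kinase complex to the site of autophagosome formation, and *Ulk2*, a kinase that starts autophagy. Over all genes tested, 7.97% were called lower and 4.36% higher, and the 2 members are 5.13% of the list, so the share of calls among the autophagy genes was no greater than the background. In sorted cells, fewer cells of a type and less RNA per cell cannot be told apart.

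Over the whole list the fold changes lay mostly below 0. The log2 fold change of SmadKO over WT was below 0 for 31 of 39 members (79.5%), against 49.4% of all genes tested, and the median over members was −0.24 against 0.01 over all genes. In the lists of related genes described below, 62.5% to 66.7% were below 0. All genes tested were not matched to the members in level or exon length, and the list was not tested as a set. With libraries scaled by their totals alone the median of all genes moved to 0.13, and the member median was then −0.11 with 28 of 39 below 0. By groups that did not overlap in CPM, 8 members were lower in every SmadKO library than in any WT library (*Atg14*, *Ulk2*, *Pik3r4*, *Sqstm1*, *Atg3*, *Atg12*, *Atg4d* and *Rb1cc1*), and 1 was higher (*Atg10*), where 13% and 9.04% of all genes tested did the same. At an unadjusted p under 0.05, 10 members were lower and 3 higher, against 15.6% and 13.1% of all genes. DESeq2 called 7 members lower and 1 higher, against 12.6% and 10.1% of the 18909 genes with an adjusted p in that test. The 5 that DESeq2 added to the lower calls were *Pik3r4*, *Atg16l1*, *Rb1cc1*, *Sqstm1* and *Atg4d*, and the higher call was *Gabarapl1*. With the replicate number as a block, edgeR called 4 members lower (*Atg16l1* and *Pik3c3* in addition) and *Gabarapl1* higher. Over all 20153 genes tested, that fit called 1497 lower and 886 higher.

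**Figure D1:**
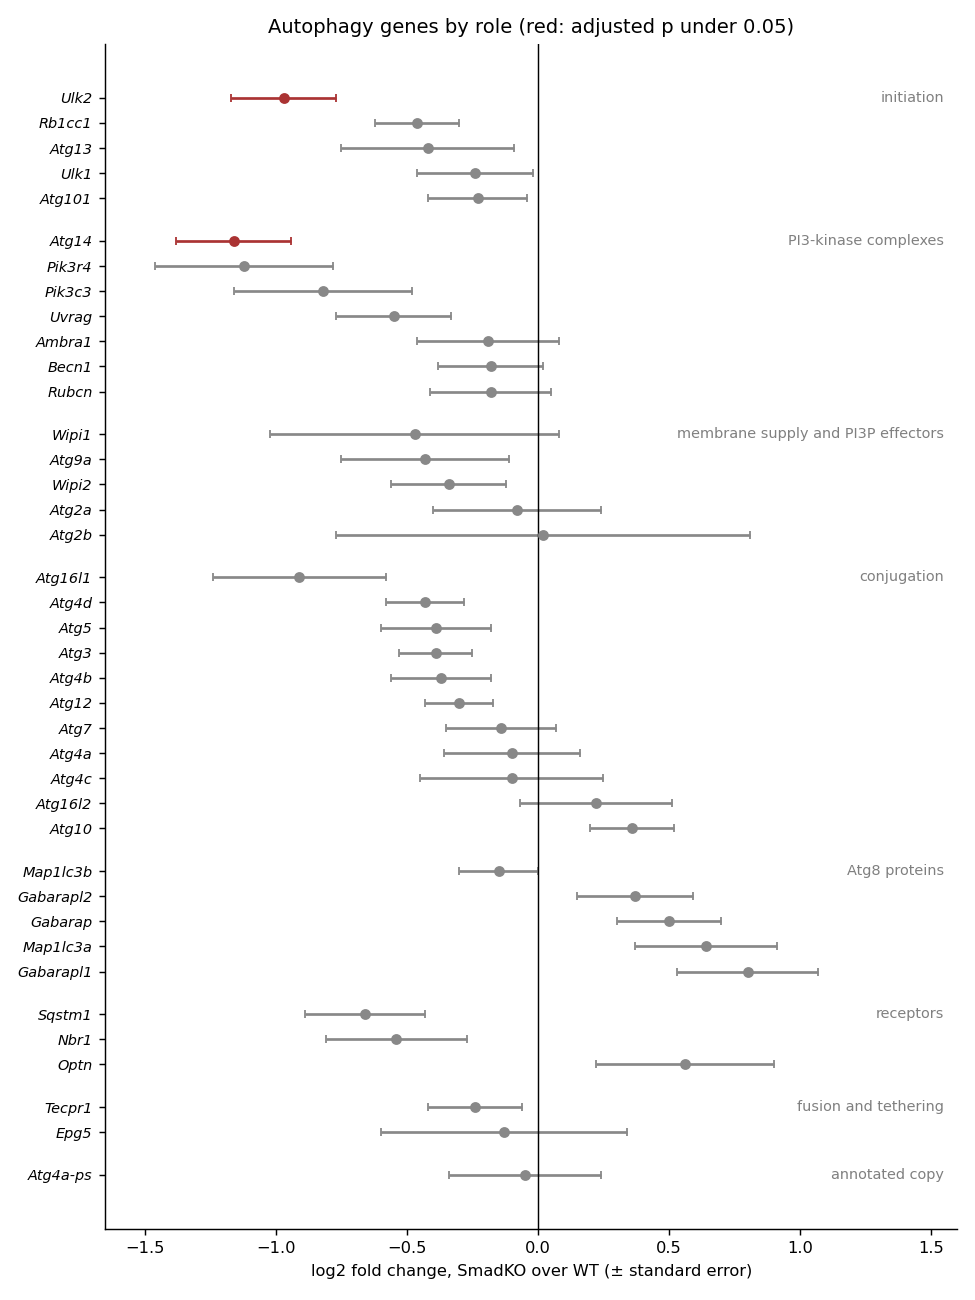
Log2 fold change of SmadKO over WT for the 39 autophagy genes that passed the filter, grouped by role, with bars for the standard error (4 libraries per group) and red for an adjusted p under 0.05. The initiation and PI3-kinase genes lie at or below −0.18, and 4 of the 5 Atg8 genes lie above 0.

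All 5 genes of the initiation complex had fold changes below 0, with a median of −0.42, and *Ulk2* was called. *Ulk2* (chr11:61775649-61855073, minus strand, GRCm38) was at 98.4, 124, 138 and 97.7 CPM in the 4 WT libraries and at 74.1, 59.4, 56.2 and 43.6 CPM in the SmadKO libraries. The groups did not overlap, and the highest SmadKO library, replicate 1, lay below the lowest WT library. The log2 fold change was −0.97 ± 0.20 (SE, adjusted p = 0.0136), a 1.96-fold lower level. *Rb1cc1*, which encodes the scaffold FIP200 of the complex, had the tightest WT values of the list relative to their level, between 25.8 and 27.2 CPM, and lay between 16.7 and 21.7 CPM in SmadKO (−0.46, adjusted p = 0.0908). *Ulk1*, the other kinase of the pair, overlapped between the groups (34.9 to 45.3 CPM in WT and 22.2 to 43.7 CPM in SmadKO, log2 fold change −0.24). *Atg13* (−0.42) and *Atg101* (−0.23), the regulatory subunits, also overlapped.

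The 7 genes of the class III PI3-kinase complexes were all below 0, with a median of −0.55. *Atg14* (chr14:47540893-47570649, minus strand) was at 38.0, 47.0, 42.1 and 40.5 CPM in WT and at 24.0, 21.7, 16.3 and 12.6 CPM in SmadKO. Every SmadKO library was below every WT library, and SmadKO replicate 4 was the lowest. The log2 fold change of −1.16 ± 0.22 (SE, adjusted p = 0.00938) was the furthest from 0 among the members, a 2.24-fold lower level. An antisense gene that shares 239 bases of exon with *Atg14* was at or below 0.13 CPM in every library.

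*Pik3r4*, the regulatory subunit VPS15 that keeps the lipid kinase active, was the member nearest to a call without one. Its levels were 19.2, 48.6, 29.7 and 19.9 CPM in WT and 17.3, 10.3, 10.9 and 15.3 CPM in SmadKO. The groups did not overlap, but WT replicates 1 and 4 lay close to SmadKO replicate 1, and WT replicate 2 stood well above the others. Its log2 fold change was −1.12 ± 0.34 (adjusted p = 0.0601), and with 1 library left out it passed the test in 1 of 8 fits, without WT replicate 1 (−1.28, adjusted p = 0.0474). Without WT replicate 2 the log2 fold change was −0.77 (adjusted p = 0.151), the one nearest to 0 of these fits. With all libraries kept, *Pik3r4* passed with 10 counts in all 8 libraries (−1.11, adjusted p = 0.0421) and in DESeq2 (−1.12, adjusted p = 0.0131). It was called in 3 of the 16 alternative fits. The catalytic subunit VPS34, encoded by *Pik3c3*, had a log2 fold change of −0.82 (adjusted p = 0.155), with 19.3 to 41.9 CPM in WT and 8.59 to 24.1 CPM in SmadKO. With the replicate number as a block, *Pik3c3* was at −0.86 and passed the test (adjusted p = 0.0325). *Uvrag*, which takes the place of ATG14 in the complex that acts on endosomes, was at −0.55 (adjusted p = 0.145). *Becn1* (−0.18), the subunit shared by both complexes, *Ambra1* (−0.19), its regulator, and *Rubcn* (−0.18), an inhibitor of the UVRAG complex that also serves LC3-associated phagocytosis, were the 3 closest to 0. Exons of *Becn1* share 3104 bases with *Cntd1* on the other strand, and the libraries are unstranded. The Methods do not say how reads over these bases were assigned, so the level of *Becn1* is uncertain. *Cntd1* itself was listed at 0.135 CPM in WT and 0.304 CPM in SmadKO.

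**Figure D2:**
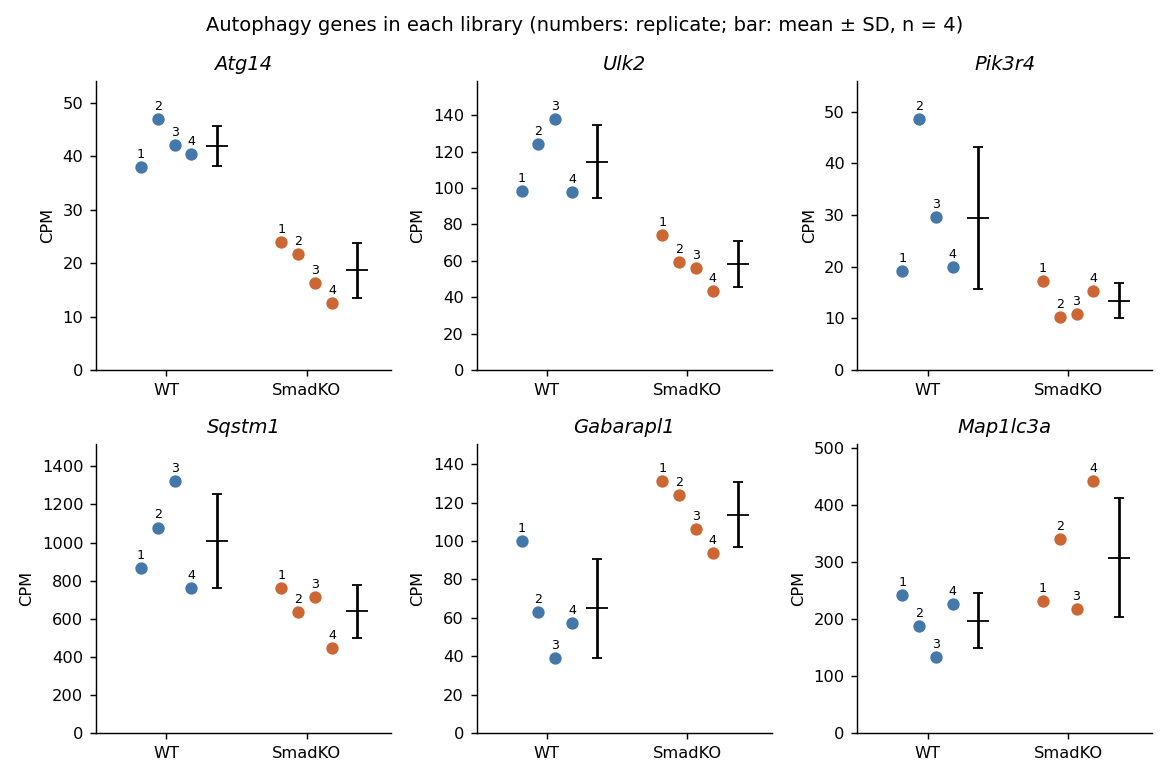
CPM in each library for 6 autophagy genes, with the replicate number above each point and the mean ± SD (n = 4) as a bar, on axes that start at 0. In *Atg14*, *Ulk2*, *Pik3r4* and *Sqstm1* the SmadKO points lie below the WT points, whereas *Gabarapl1* and *Map1lc3a* have higher means in SmadKO and overlap.

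The promoters of the 2 genes that fell are shown as a reference for the motif counts, from RefSeq on GRCm38.p6, as 250 bases before and 50 bases after the start on the coding strand. Capitals mark either CACGTG, the palindromic E-box to which TFEB and related factors can bind, or CAGAC, a SMAD-binding element, searched on both strands. The RefSeq start used for *Atg14* lies within the GENCODE span given above.
*Ulk2*, chr11:61855043-61855342, minus strand: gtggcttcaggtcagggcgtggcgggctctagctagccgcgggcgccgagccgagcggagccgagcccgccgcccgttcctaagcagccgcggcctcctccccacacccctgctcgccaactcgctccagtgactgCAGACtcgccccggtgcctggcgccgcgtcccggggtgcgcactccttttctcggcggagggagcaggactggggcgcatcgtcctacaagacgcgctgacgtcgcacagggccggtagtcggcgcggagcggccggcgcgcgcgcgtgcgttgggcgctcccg
*Atg14*, chr14:47568385-47568684, minus strand: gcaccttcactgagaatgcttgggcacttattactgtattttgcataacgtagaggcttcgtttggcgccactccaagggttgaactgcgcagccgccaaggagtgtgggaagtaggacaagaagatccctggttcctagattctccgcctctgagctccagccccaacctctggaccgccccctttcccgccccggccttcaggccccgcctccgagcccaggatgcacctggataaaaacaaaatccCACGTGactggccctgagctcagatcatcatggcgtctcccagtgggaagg
The *Atg14* window held 1 E-box, whose first base was at −1 from the start, and no CAGAC, whereas the *Ulk2* window held 1 CAGAC, whose first base was at −114, and no E-box. Over the promoters of the 31 members with an entry (35 windows), 5 held the E-box (14.3%, in *Atg14*, *Atg3*, *Atg5*, *Atg7* and *Rubcn*) and 22 held CAGAC (62.9%). Over all 32851 promoters of the same length, 7.15% held the E-box and 49.6% held CAGAC. These matches are of letters only, and binding was not measured here.

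None of the membrane supply genes and PI3P effectors was called, and their median was −0.34 over the 5 tested. *Wipi2*, the PI3P effector that recruits ATG16L1, was at 55.5 to 80.9 CPM in WT and 38.5 to 74.9 CPM in SmadKO (−0.34, adjusted p = 0.356). *Atg9a*, a lipid scramblase that seeds the membrane, was at −0.43 and *Wipi1* at −0.47, both with overlap. The exons of *Atg9a* share 1878 bases with *Gm29253* on the same strand, which had no counts in any library, and *Ankzf1* on the other strand (19.1 CPM in WT and 15.6 CPM in SmadKO), so its level is uncertain. SmadKO replicate 4 stood far below the other libraries for 2 genes of this group. *Atg2b*, a lipid transfer protein, was at 0.442 CPM there and at 3.06, 7.54 and 15.5 CPM in the other SmadKO libraries, against 5.61 to 8.72 CPM in WT. *Wipi1* was at 1.52 CPM there, against 8.12 to 14.7 CPM in the other SmadKO libraries. The fold change of *Atg2b* was 0.02 with a standard error of 0.79, the widest of the list, so no difference was detectable, and its paralog *Atg2a* was at −0.08.

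Of the 11 conjugation genes 9 were below 0 (median −0.30) and none was called in the main edgeR fit. *Atg16l1*, which places the conjugation reaction on the membrane, had the fold change furthest from 0 of the group (−0.91 ± 0.33, adjusted p = 0.109), with 24.0 to 49.9 CPM in WT and 11 to 29.2 CPM in SmadKO. With the replicate number as a block, *Atg16l1* was at −0.94 and passed the test (adjusted p = 0.0177). *Atg3* (−0.39), the E2-like enzyme for Atg8 proteins, *Atg12* (−0.30), the ubiquitin-like protein joined to ATG5, and *Atg4d* (−0.43), a protease that releases Atg8 proteins from the membrane, were lower in all 4 SmadKO libraries, with adjusted p between 0.0929 and 0.174. Of the *Atg4d* exons 1405 bases lie opposite *Kri1*, which was at 4.2 CPM in WT and 3.1 CPM in SmadKO. *Atg10*, the E2-like enzyme for ATG12, was the one gene of the list that was higher in all SmadKO libraries (21 to 25.3 CPM, against 15.8 to 20.1 CPM in WT, log2 fold change 0.36, adjusted p = 0.179). The E1-like enzyme *Atg7* (−0.14) and *Atg5* (−0.39) overlapped between the groups, as did *Atg4a* (−0.10), *Atg4b* (−0.37), *Atg4c* (−0.10) and *Atg16l2* (0.22). Of the 50-base words in *Atg4a* exons, 51.2% also occurred in other genes, mainly the copy *Atg4a-ps* (−0.05), so the authors' counting may have split their reads.

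The Atg8 genes lay mostly on the other side of 0, and none was called in the main edgeR fit. Of the 5 genes 4 were above 0, with a median of 0.50, and 3 of them had an unadjusted p under 0.05. That level was reached in the higher direction by 13.1% of all genes tested. The 4 above 0 have merged exons of 1181 (*Map1lc3a*), 1844 (*Gabarap*), 2013 (*Gabarapl1*) and 2325 bases (*Gabarapl2*), against 7517 in *Map1lc3b*. Of the other members below 2325 bases, *Atg10* (1718) was above 0, and *Atg101* (1597) and *Atg4a-ps* (2115) were below it. *Optn* (3753), *Atg16l2* (8469) and *Atg2b* (13456) were longer and above 0. The part of exon length in these directions was not tested. *Gabarapl1*, described here after its values were seen, was at 100, 63.2, 38.9 and 57.4 CPM in WT and at 131, 124, 106 and 93.9 CPM in SmadKO. SmadKO replicate 4 lay just below WT replicate 1, and all other SmadKO values were above all WT values. The log2 fold change was 0.80 ± 0.27 (adjusted p = 0.0867), and with 1 library left out it passed the test in 1 of 8 fits, without WT replicate 1 (1.09, adjusted p = 0.018). In the other 7 fits the adjusted p was up to 0.186, and the log2 fold change was smallest without WT replicate 3 (0.62, adjusted p = 0.163). With all libraries and the replicate number as a block, *Gabarapl1* was at 0.87 and passed the test (adjusted p = 0.0434). A noncoding gene on the other strand shares 570 bases of its exons and was at 0.332 CPM in WT and 0.939 CPM in SmadKO. *Map1lc3a* (0.64, adjusted p = 0.16) was spread from 218 to 442 CPM in SmadKO and from 133 to 242 CPM in WT. *Gabarap* was at 0.50 (adjusted p = 0.139) and *Gabarapl2* at 0.37 (adjusted p = 0.295). *Map1lc3b*, the form most used as an autophagosome marker, had a fold of 0.901 with an approximate 95% interval of 0.732 to 1.11 (adjusted p = 0.573). RNA levels of these genes do not give the lipidated protein or the flux through the pathway.

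The cargo receptors differed in direction, and none was called. *Sqstm1*, which encodes p62 and links ubiquitinated cargo to LC3, is also given in full after its values were seen, and was at 865, 1079, 1321 and 762 CPM in WT and at 761, 635, 715 and 444 CPM in SmadKO. The groups did not overlap, but SmadKO replicate 1 and WT replicate 4 were nearly equal. The log2 fold change was −0.66 ± 0.23 (adjusted p = 0.0986). *Nbr1*, a receptor related to p62, was at −0.54 (adjusted p = 0.221), and *Optn*, the receptor optineurin, was at 0.56 (adjusted p = 0.315), both with overlap. Among the exons of *Sqstm1*, 580 bases are shared with *Mrnip* on the other strand, whose mean level was 4.46 CPM in WT and 4.84 CPM in SmadKO. The tethering factors *Tecpr1* (−0.24) and *Epg5* (−0.13) overlapped between the groups.

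Compared per kilobase of exon, the order of levels at the top of the list differed between the groups. In WT microglia *Sqstm1* was at 300 ± 73.8 CPM per kilobase (SD, n = 4), *Map1lc3a* at 167 ± 41.2 and *Gabarap* at 148 ± 28.1. In SmadKO microglia *Map1lc3a* was at 261 ± 88.7 CPM per kilobase, *Gabarap* at 208 ± 42.9 and *Sqstm1* at 190 ± 41.7. The top 3 of the SmadKO order did not differ beyond their spread. In WT *Sqstm1* stood above *Map1lc3a* by more than the SD of either, whereas *Map1lc3a* and *Gabarap* did not differ beyond theirs. *Atg101* was next in WT (50.3 ± 8.45), apart from its neighbours on both sides. Below it *Gabarapl2* (34.3), *Atg5* (33.3), *Gabarapl1* (32.3) and *Map1lc3b* (28.7) each differed from the next by less than the larger of their SDs. *Atg14* was the 13th of the 39 genes in WT (9.69 ± 0.874) and the 21st in SmadKO (4.32 ± 1.20). *Epg5* and *Atg2b* were the lowest in both groups, at less than 1 CPM per kilobase.

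**Figure D3:**
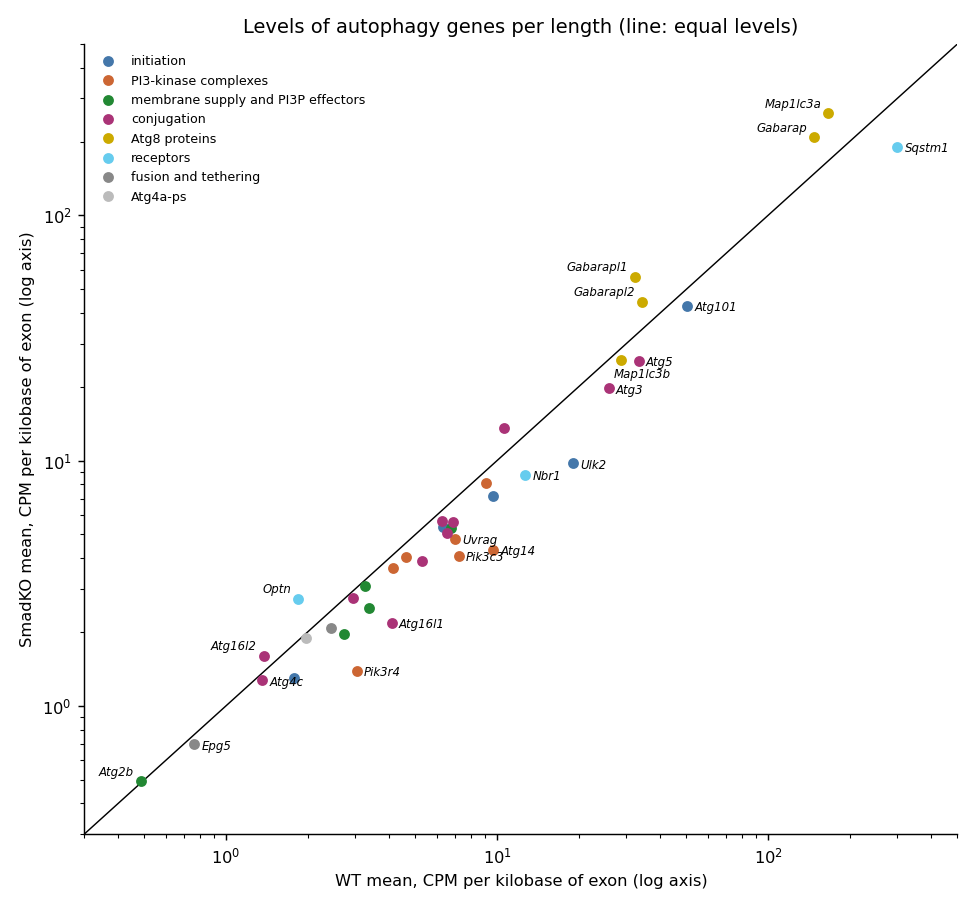
Mean level of each autophagy gene in WT (x axis) and SmadKO (y axis), in CPM per kilobase of exon on log axes, coloured by role, with a line of equal levels and names for the genes far from the line or at either end. The Atg8 genes *Map1lc3a*, *Gabarap*, *Gabarapl1* and *Gabarapl2* lie above the line, and most genes below 20 CPM per kilobase lie on it or below it.

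Ratios between related members within a library do not depend on how libraries are scaled, and 12 such pairs were compared with two-sided exact permutation tests, for which the smallest p is 0.0286. The ratio of *Atg16l2* to *Atg16l1* was 0.19, 0.33, 0.337 and 0.371 in WT and 0.556, 0.837, 0.533 and 0.829 in SmadKO. It was higher in all SmadKO libraries, by 1.15 on the log2 scale, with the smallest p the design allows, which became 0.343 after adjustment over the 12 pairs and so failed the correction. *Atg16l2* shares 25 bases of exon with *Fchsd2* on the other strand, which had a mean of 124 CPM in WT and 13.2 CPM in SmadKO. The other 11 pairs overlapped between the groups, with exact permutation p between 0.143 and 0.771. Among them the ratio of *Ulk1* to *Ulk2* was 0.309 to 0.464 in WT and 0.299, 0.737, 0.633 and 0.856 in SmadKO, so replicate 1 lay just below the WT range and the other 3 above it. The ratio of *Map1lc3a* to *Map1lc3b* differed by 0.77 on the log2 scale (exact permutation p = 0.2).

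Genes that surround this machinery were counted in the same test, from lists of 5 kinds, to be read against the 7.97% of all genes called lower, the 4.36% called higher and their median of 0.01. The 5 lists were chosen with earlier results of these data known, and hold only part of some gene families. A share above that of all genes therefore does not show that a list differs from other genes. Of the 8 transcription factors tied to autophagy and lysosome genes, 3 were called lower (37.5%) and 1 higher (median −0.63). *Tfeb* (72.3 ± 4.73 CPM in WT and 38.8 ± 3.78 in SmadKO, SD, n = 4, log2 fold change −0.90, adjusted p = 0.00307) and *Tfe3* (174 ± 29.0 and 86.7 ± 9.22 CPM, −1.0, adjusted p = 0.00428) are the MiT family activators of lysosomal genes, and both fell. *Tfe3* lies on the X chromosome, and sex and genotype cannot be told apart in these libraries. *Foxo1*, a factor that can induce autophagy genes, fell by 0.66 on the log2 scale (adjusted p = 0.0237). *Tfec*, a further MiT family gene, rose from 1.43 ± 0.242 to 11 ± 6.12 CPM (log2 fold change 2.94, adjusted p = 0.00269), and *Mitf* was at 0.30 without a call.

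Of the 21 nutrient-sensing genes 5 were called lower (23.8%, against 7.97% of all genes) and 1 higher (median −0.37). *Rptor*, the mTORC1 subunit that binds its substrates, was at 81.5 to 127 CPM in WT and 14.8 to 23.8 CPM in SmadKO (−2.33, adjusted p = 0.00023). *Prkab1*, a subunit of the AMP-activated kinase, fell from 186 ± 34.8 to 55.3 ± 8.15 CPM (−1.75, adjusted p = 0.000464). *Sesn2* (−1.23), *Sesn1* (−0.83) and *Flcn* (−1.12), which signal amino acid supply or stress to mTORC1, also fell, and *Deptor*, an inhibitor of mTOR, rose (0.83, adjusted p = 0.0168). The kinase gene *Mtor* itself was at 0.01. The members of this list that fell thus include both an mTORC1 subunit and upstream inhibitors of mTORC1.

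Fusion with lysosomes was covered by 14 genes, of which 2 fell (14.3%, against 7.97% of all genes, median −0.44). These were *Ykt6*, a SNARE of autophagosome fusion (107 ± 24.1 CPM in WT and 34.9 ± 2.43 in SmadKO, −1.61, adjusted p = 0.000716), and *Vps18*, a core subunit of the HOPS tether (−1.41, adjusted p = 0.0312). *Stx17*, the other autophagosomal SNARE, was at 0.35 without a call. Of 12 further genes grouped under autophagosome formation, a loose list not limited to formation factors, 2 fell (16.7%, median −0.45). They were *Wdr45b*, the WIPI3 gene, which the symbol rule does not take (155 ± 40.1 and 65.0 ± 14.2 CPM, −1.25, adjusted p = 0.00768), and *Dcaf12* (−0.86, adjusted p = 0.0158). Of 16 further cargo receptors *Retreg1*, an ER-phagy receptor, fell (−0.63, adjusted p = 0.0332), and 1 call of 16 (6.25%) is below the background share, with a list median of −0.09. *Tfeb*, *Tfe3*, *Tfec*, *Rptor*, *Prkab1*, *Sesn2*, *Flcn*, *Ykt6* and *Wdr45b* kept their calls in all 16 alternative fits, whereas leaving out 1 library ended the call of the other 6, with adjusted p up to 0.123. The call was lost for *Retreg1* without any library but WT replicate 1, for *Sesn1* without any but replicate 1 of either group, and for *Foxo1* without WT replicate 2, 3 or 4 or SmadKO replicate 2 or 4. It was lost for *Vps18* without WT replicate 2 or 3 or SmadKO replicate 2, for *Dcaf12* without replicate 2 of either group, and for *Deptor* without WT replicate 3. With all libraries kept, *Sesn1* also lost its call with RLE size factors, library totals, no filter, the replicate block and the neural covariate. *Retreg1* lost it with library totals and with no filter, and *Foxo1* with library totals and under the block. Of the 16 alternative fits, 5 called *Sesn1*, 6 called *Retreg1* and 9 called *Foxo1*. Exons of *Rptor*, *Deptor* and *Foxo1* share 84, 303 and 674 bases with noncoding genes on the other strand, whose reads cannot be told apart in unstranded libraries.

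**Figure D4:**
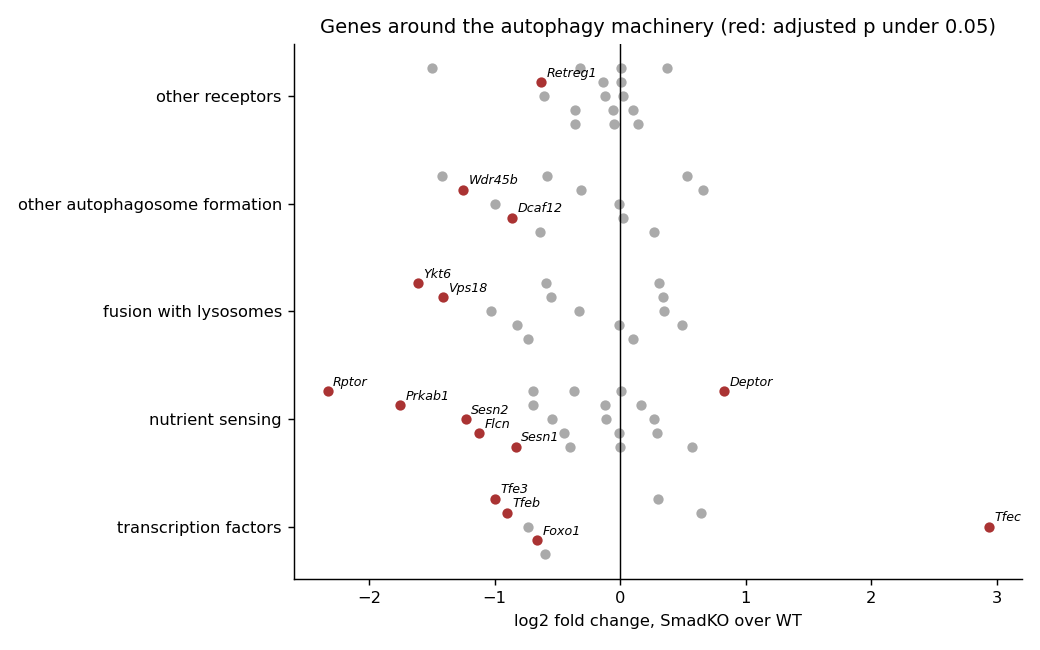
Log2 fold change of SmadKO over WT for the genes of 5 lists around the autophagy machinery, 1 point per gene (height within a list has no meaning), with red and a name for an adjusted p under 0.05. Most named genes lie below 0, with *Tfec* at 2.94 and *Deptor* at 0.83 above it.

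Within the SmadKO group, replicate 4 was the lowest of the 8 libraries for 18 of the 39 members and the lowest of its group for 22. It was also the highest of the 8 for 4 members, *Gabarap* (474 CPM), *Map1lc3a* (442 CPM), *Gabarapl2* (136 CPM) and *Atg10* (25.3 CPM). Its total of 35639502 counts was the smallest of the series. Without it the member median was −0.17 with 30 of 39 below 0, and *Atg14* and *Ulk2* were again the 2 calls. These 2 genes passed the test in all 16 alternative fits, with log2 fold changes of −1.34 to −1.02 for *Atg14* and −1.17 to −0.84 for *Ulk2*. Without SmadKO replicate 4, *Map1lc3a* moved from 0.64 to 0.42, *Gabarap* from 0.50 to 0.38 and *Gabarapl2* from 0.37 to 0.21 in log2 fold change. For each of the 3, this was the value nearest to 0 with 1 library left out. *Atg10* moved from 0.36 to 0.32, and *Gabarapl1* from 0.80 to 0.88.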

How the data were processed

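The authors deposited raw read counts per gene for sorted microglia of 4 SmadKO and 4 WT mice. By the Methods, reads were aligned to mm10 with Rsubread and counted with featureCounts, and the submitters' processing notes name featureCounts and DESeq2 1.28. The labels describe Nextera XT single-end unstranded libraries, whereas the Methods describe NEBNext Ultra II paired-end libraries and name another deposit. The annotation and the version of featureCounts are not given in the sources used here. Not used was the authors' own table of fold changes and p-values from their comparison.

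From the deposited counts, genes that reached 10 counts in 4 or more of the 8 libraries were compared in edgeR 4.0.16 (R 4.3.3) by its quasi-likelihood test (glmQLFit and glmQLFTest) with TMM scaling and no covariate. Benjamini-Hochberg adjustment ran over all 20153 genes, and an adjusted p under 0.05 made a call. CPM used the TMM-scaled totals, and levels between genes were divided by kilobases of merged exons of GENCODE M21 (GRCm38). Paralog ratios were log2 of CPM plus 0.5, with a two-sided exact permutation test (70 splits of 4 against 4). The 95% interval was taken as 1.96 standard errors on the log2 scale, a normal approximation. With 4 libraries per group it is narrower than the quasi-likelihood test implies. The members, lists and tests were chosen with earlier results of these data known. Any member could be named, values in every library were given for called members and the member nearest to a call, with *Gabarapl1* and *Sqstm1* added after their values were seen, and called genes of the related lists were named (at most the 6 of largest absolute fold change per list). Marker genes, *Smad2*, *Smad3* and sex-linked genes checked the labels.

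The biological coefficient of variation was 0.542, so the spread between mice, more than counting error, set the precision at these depths. No libraries were duplicates. The code was tested on simulated data. Replicate numbers come from the labels, which do not say what they pair. The alternatives were DESeq2 1.42.0, RLE size factors, library totals, no filter, the replicate number as a block, a filter of 10 counts in every library, a neural marker score (19 genes) as a covariate, each library left out in turn and, for the ratios, a prior of 2 CPM. Leaving out the 2 libraries of highest neural score (WT and SmadKO replicate 1) was chosen after seeing the data. Plots were made with matplotlib 3.10.9, and tables with pandas 2.3.3 and scipy 1.17.1 in Python 3.11.15.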

Additional observations from a re-analysis of the deposited data

Results flagged for a closer look

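Among the 78 groups of 4 libraries (39 members in each genotype), 2 (2.56%) had a library set apart from the other 3 by Dixon's criterion, where chance alone gives about 1 in 20. *Atg4d* was highest in WT replicate 3 at 45.2 CPM, against 35.4 to 36.3 CPM in the other WT libraries. *Gabarap* was highest in WT replicate 4 at 349 CPM, against 240 to 254 CPM in the other WT libraries, so that this library lay within the SmadKO range of 282 to 474 CPM.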

How the results depend on the processing

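Of the 624 fold changes of members under 16 alternatives, 591 kept their direction and their side of the threshold, 14 passed it in addition and 19 changed sign, in 6 members whose fold changes were near 0. The sign changes were in *Atg4a* (0.03 with library totals and 0.00 without WT replicate 2), *Atg4a-ps* (0.07 with library totals, and −0.17 to 0.07 with 1 library left out), *Atg4c* (−0.29 to 0.13 with 1 left out), *Atg2b* (−0.72 under the block, and −0.83 to 0.41 with 1 left out), *Epg5* (0.09 under the block, 0.29 with the neural covariate, and −0.44 to 0.25 with 1 left out) and *Atg2a* (0.07 with library totals, and −0.31 to 0.16 with 1 left out). For the other 33 members the direction held in every fit. With 1 library left out, *Atg14* and *Ulk2* were again called each time.

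The count of members called higher was 1 (*Gabarapl1*) in DESeq2, under the replicate block, with the neural covariate, without WT replicate 1 and without the 2 libraries of highest neural score, and ranged from 0 to 1 with 1 library left out. The count called lower was 7 in DESeq2 and 4 under the block (*Atg16l1* and *Pik3c3* in addition). It was 3 with 10 counts in all 8 libraries (*Pik3r4* in addition) and 2 to 3 with 1 left out. Over all genes, DESeq2 called 1903 higher. With 1 library left out, 525 to 1024 genes were called higher and 1005 to 1587 lower, and the lowest counts came without WT replicate 2 (525 higher) and WT replicate 3 (1005 lower). These fits had fewer samples, and the cause of the other changes was not tested.

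In the related lists, further receptors had 0 lower calls with library totals, with no filter and without the 2 libraries of highest neural score, and 0 to 1 with 1 left out. The further formation list had 1 higher call in DESeq2, with library totals and with the neural covariate (0 to 1 with 1 left out), and 4 lower calls in DESeq2 (1 to 3). Fusion genes had 4 lower calls in DESeq2, with 10 counts in all 8 libraries and under the block, 5 without the 2 libraries of highest neural score, and 1 to 5 with 1 left out, the 5 without SmadKO replicate 1. Nutrient-sensing genes had 0 higher calls without the 2 libraries, and 0 to 1 with 1 left out.

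Ratios that changed sign with 1 library left out were *Gabarapl2* to *Gabarap* (−0.21 to 0.06), *Atg2a* to *Atg2b* (−0.03 to 1.16), *Atg4d* to *Atg4b* (−0.21 to 0.05), *Wipi1* to *Wipi2* (−0.61 to 0.08) and *Nbr1* to *Sqstm1* (−0.03 to 0.20). *Atg16l2* to *Atg16l1* stayed at 0.94 to 1.26. Without 1 library the smallest exact permutation p is 0.0571, and with pairs by number 0.125, so these fits cannot pass the threshold.

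The main fit did not pair libraries by replicate number, since the labels give no pairing and not every same-numbered pair correlated above 0.1. Deviations of same-numbered libraries correlated across genes at 0.166, 0.0183, 0.144 and 0.114. For replicates 1, 3 and 4 the same-numbered pair was the highest in both directions. WT replicate 2 correlated best with SmadKO replicate 1 (0.108), and SmadKO replicate 2 with WT replicate 1 (0.0336). A pairing by number was thus neither assumed nor excluded. Under the replicate block 2383 genes were called, of which 2001 were shared with the fit without it. The block took *Atg16l1* (adjusted p = 0.0177), *Pik3c3* (0.0325) and *Gabarapl1* (0.0434) past the threshold and ended the calls of *Foxo1* (0.0628) and *Sesn1* (0.0676), and *Pik3r4* stayed uncalled (0.138).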
